A study of Mus musculus with 24 samples.

Results

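Insulin was set against IGF-1 over 16 of the 24 libraries of a study of mouse primary cortical astrocytes, with genotype held equal. All 8 libraries of insulin-treated cells and all 8 of IGF-1-treated cells were taken by their labels. The ligand difference was computed within each of the 2 genotypes, 4 libraries against 4, and the 2 differences were averaged with equal weight. Such an average resolves smaller differences than 4 libraries against 4, and the genes that passed in the average alone are described separately. The study measured polyadenylated RNA by sequencing in 6 groups of 4 libraries.

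The 4 ligand groups were IRKO cells given insulin, IRflox cells given insulin, IRKO cells given IGF-1 and IRflox cells given IGF-1. Both genotypes came from the cortex of newborn pups with floxed insulin receptor alleles. IRKO cultures had been infected with an adenovirus for a Cre:GFP fusion, and IRflox cultures with an adenovirus for GFP alone, 5 days before use. Genotype and virus content therefore cannot be told apart, but each ligand difference lies within 1 genotype and 1 virus. All cultures were serum starved overnight, in medium with bovine albumin, and then given insulin at 100 nM, IGF-1 at the same dose, or vehicle, for 6 h. The 8 vehicle libraries, 4 of each genotype, give the level without ligand. The labels do not say whether replicates are separate cultures or litters, so the p-values cover how much these libraries vary, part or all of which may be technical variation.

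Insulin and IGF-1 are related peptide hormones with related tyrosine kinase receptors, which can also join as hybrids, and each peptide at a high dose can bind the other's receptor. Both receptors act through IRS and SHC adaptor proteins on PI3-kinase and AKT, which hold FOXO transcription factors out of the nucleus, on mTORC1, which promotes ribosome production and the SREBP factors that drive sterol genes, and on the RAS and ERK cascade. Astrocytes carry both receptors, and the IGF-1 receptor is intact in both genotypes used here.

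The 16 ligand libraries held 16114140 to 18593268 gene counts, and 15599 of the 32719 genes passed the filter on low counts. Insr, the receptor gene targeted by Cre, averaged 29.0 ± 1.70 CPM (counts scaled to library size) in IRKO and 49.6 ± 2.35 CPM in IRflox cells under insulin, and 30.3 ± 1.395 CPM in IRKO and 48.5 ± 1.95 CPM in IRflox cells under IGF-1 (SD, n = 4 each). Its counts run over the whole gene, so they do not separate deleted from intact transcripts. Of the 12 astrocyte markers none was at 0, and their summed level was 4537 to 4919 CPM under insulin, against 4203 to 4572 CPM under IGF-1. The 17 microglia markers were all detected too, at a summed 1783 to 2239 CPM under insulin and 1815 to 2258 CPM under IGF-1, so the cultures were not astrocytes alone. In a principal component analysis of the 16 libraries, the second component (9.99% of the variance) placed all 8 insulin libraries on one side of 0 and all 8 IGF-1 libraries on the other. The first (16.2%) ran with genotype.

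Liver transcripts moved with the ligand. Alb, the albumin gene, had 133, 1, 86 and 60 counts in the IRKO and 153, 101, 118 and 50 counts in the IRflox insulin libraries, against 38, 23, 7 and 24 in the IRKO and 22, 1, 57 and 1 in the IRflox IGF-1 libraries. It was called higher under insulin (log2 difference 1.97, SE 0.51, adjusted p = 0.0101), with Ttr, the transthyretin gene (log2 difference 1.65, adjusted p = 0.0281), and Apoa2, an apolipoprotein gene (log2 difference 0.95, adjusted p = 0.0167). DESeq2 did not call Alb (adjusted p = 0.301) or Ttr (adjusted p = 0.147), and the edgeR call of all 3 was lost without the libraries with over 20% of reads outside genes (adjusted p = 0.0572 for Alb, 0.0587 for Ttr and 0.0758 for Apoa2). The Ttr call was lost in 6 of 16 fits that left out 1 library (adjusted p 0.00475 to 0.118), and the Apoa2 call without IRKO insulin replicate 1 (adjusted p = 0.08). Alb reached at most 9.27 CPM, and 1 vehicle library held 112 counts of it. The summed level of 13 hepatocyte markers was 30.4, 38.3 and 44.8 CPM (lowest, median, highest) under insulin, against 25.98, 32.02 and 35.5 CPM under IGF-1. Much of this sum came from markers other than those with few counts above. IRKO insulin replicate 2, with 16114140 gene counts, held 1 count of Alb, 4 of Apoa1, 9 of Apoa2 and 4 of Ttr. The summed level is therefore not a measure of Alb, Ttr and Apoa2 alone. Fitted with the summed level as a covariate, an alternative chosen after seeing the data, the average gave 393 called genes in place of 1333. The level itself differs between the ligands, so that fit cannot fully tell it apart from the ligand. Why fewer genes were called there was not tested.

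Averaged over genotypes, 1333 genes differed between insulin and IGF-1 at an adjusted p under 0.05 in edgeR's quasi-likelihood test, which is 8.55% of the genes tested. Of these, 664 (4.26%) were higher and 669 (4.29%) lower under insulin. The differences were small, with a median size of 0.164 on the log2 scale. Only 34 passed 1.5-fold, 15 of them higher and 19 lower, and 1060 lay under 1.2-fold. In 142 genes (0.91% of those tested) the 8 insulin and the 8 IGF-1 libraries did not overlap, with insulin above in 63 (0.404%) and below in 79 (0.506%).

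**Figure D1:**
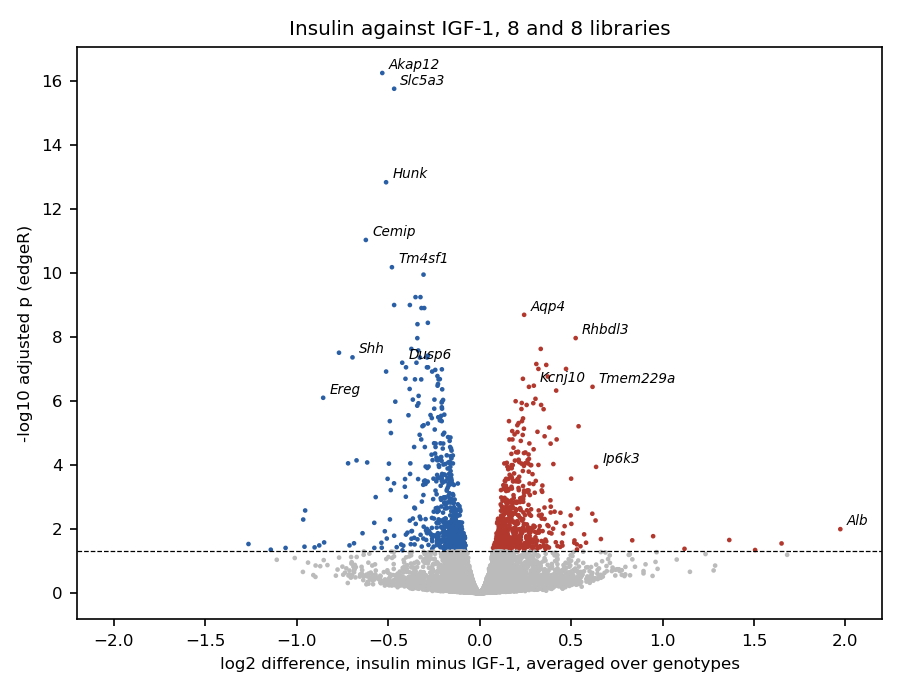
Log2 difference, insulin minus IGF-1, averaged over genotypes (horizontal axis), against the -log10 of edgeR's adjusted p (vertical axis) for each tested gene. Red points are the 664 genes higher under insulin, blue points the 669 lower, grey points the rest, and the dashed line marks an adjusted p of 0.05; 3 genes lie outside the horizontal range. The genes with the lowest p are on the lower side, led by Akap12.

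Among genes lower under insulin, the 12 largest differences at a log2 CPM averaging 2 or more included secreted signals and matrix-acting proteins. Levels are given as the lowest, median and highest of 8 libraries, and coordinates are those of GENCODE M21 on GRCm38 (mm10). Ereg (chr5:91074622-91093646, plus strand), which encodes the EGF-receptor ligand epiregulin, had 2.97, 3.802 and 6.400 CPM under insulin, against 5.43, 7.54 and 9.700 CPM under IGF-1 (log2 difference -0.86, SE 0.11, adjusted p = 7.91e-07). Its highest insulin library overlapped the IGF-1 range, and the log2 difference in each genotype was IRKO -0.88 and IRflox -0.83. Sox7, a SoxF transcription factor, had 6.08, 6.83 and 8.91 CPM under insulin, against 9.81, 12.3 and 13.98 CPM under IGF-1 (log2 difference -0.77, SE 0.086, adjusted p = 3.10e-08). All 8 insulin libraries were below all 8 IGF-1 libraries.

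Shh (chr5:28456815-28467256, minus strand), the sonic hedgehog ligand, had 9.75, 12.8 and 15.2 CPM under insulin, against 15.9, 20.8 and 26.4 CPM under IGF-1 (log2 difference -0.70, SE 0.079, adjusted p = 4.32e-08), again without overlap. Cemip, which encodes a protein that breaks down hyaluronan, had 51.2, 67.7 and 75.7 CPM under insulin, against 92.5, 102 and 120.1 CPM under IGF-1 (log2 difference -0.62, SE 0.050, adjusted p = 9.28e-12), without overlap. Its vehicle libraries had 55.1, 65.7 and 81.9 CPM, within reach of the insulin libraries, and the log2 values were -0.0069 for insulin against vehicle (adjusted p = 0.919) and 0.62 for IGF-1 against vehicle (adjusted p = 3.76e-14). The comparisons with vehicle share their vehicle libraries and share ligand libraries with the ligand difference, so they serve only to place the levels. At an adjusted p under 0.05, 58.5% of tested genes differed between insulin and vehicle and 62.5% between IGF-1 and vehicle.

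Akap12 (chr10:4266380-4359470, plus strand), a scaffold protein for protein kinase A, had the lowest p of all genes. It had 161, 189 and 211 CPM under insulin, against 235, 269 and 327 CPM under IGF-1 (log2 difference -0.53, SE 0.029, adjusted p = 5.64e-17), and vehicle libraries had 160.0, 183 and 205 CPM. Hunk, a serine/threonine kinase of the AMPK-related group, had 56.4, 64.2 and 71.4 CPM under insulin, against 84.8, 89.9 and 103 CPM under IGF-1 (log2 difference -0.51, SE 0.036, adjusted p = 1.46e-13). For both genes the groups did not overlap. The log2 difference of Akap12 was IRKO -0.50 and IRflox -0.57, and that of Hunk IRKO -0.52 and IRflox -0.50.

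The other genes among the 12 largest on this side were Cyp24a1, the enzyme that inactivates vitamin D (log2 difference -0.72, adjusted p = 8.83e-05), Sele, the adhesion molecule E-selectin (log2 difference -0.67, adjusted p = 7.15e-05), Tnfsf11, the cytokine RANKL (log2 difference -0.61, adjusted p = 8.30e-05), Epb41l4aos, a long non-coding RNA gene whose exons overlap no other measured gene (log2 difference -0.57, adjusted p = 0.001), and the ribosomal protein genes Rps29 (log2 difference -0.58, adjusted p = 0.00638) and Rpl38 (log2 difference -0.52, adjusted p = 0.0117). Rps29 and Rpl38 were not called by DESeq2 (adjusted p = 0.0701 and 0.106).

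On the side higher under insulin, Ip6k3, an inositol hexakisphosphate kinase, had 4.63, 5.83 and 8.27 CPM under insulin, against 2.499, 3.99 and 5.08 CPM under IGF-1 (log2 difference 0.64, SE 0.11, adjusted p = 1.14e-04), with overlap of the groups. Tmem229a, which encodes a membrane protein, had 9.77, 12.7 and 16.6 CPM under insulin, against 6.86, 8.52 and 9.499 CPM under IGF-1 (log2 difference 0.62, SE 0.079, adjusted p = 3.60e-07), without overlap. Its log2 difference was IRKO 0.80 and IRflox 0.43.

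Rhbdl3 (chr11:80300912-80355955, plus strand), a rhomboid-like membrane protein, had 18.8, 22.1 and 23.999 CPM under insulin, against 12.5, 14.5 and 18.5 CPM under IGF-1 (log2 difference 0.53, SE 0.056, adjusted p = 1.08e-08). Net1, an exchange factor that activates RhoA, had 20.2, 22.1 and 24.7 CPM under insulin, against 13.2, 16.3 and 17.8 CPM under IGF-1 (log2 difference 0.47, SE 0.056, adjusted p = 9.92e-08). Neither gene's groups overlapped. Vehicle libraries had 20.3, 21.3 and 22.96 CPM of Net1, and its log2 values were 0.043 for insulin against vehicle (adjusted p = 0.513) and -0.43 for IGF-1 against vehicle (adjusted p = 1.15e-08). Lrrc75b, which encodes a leucine-rich repeat protein, had 11.8, 14.6 and 16.2 CPM under insulin, against 8.48, 10.3 and 10.8 CPM under IGF-1 (log2 difference 0.54, SE 0.080, adjusted p = 6.14e-06).

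Also in the 12 largest were Gm973 (0.50), 4930578M01Rik (0.54), Endou, an endoribonuclease (0.50), Gbx2, a homeobox factor (0.46), Fam181a (0.46) and Cacng4, an AMPA receptor auxiliary subunit (0.44), all log2 differences with an adjusted p under 0.05. The last of the 12, Fbxo32, is described with the FOXO targets.

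**Figure D2:**
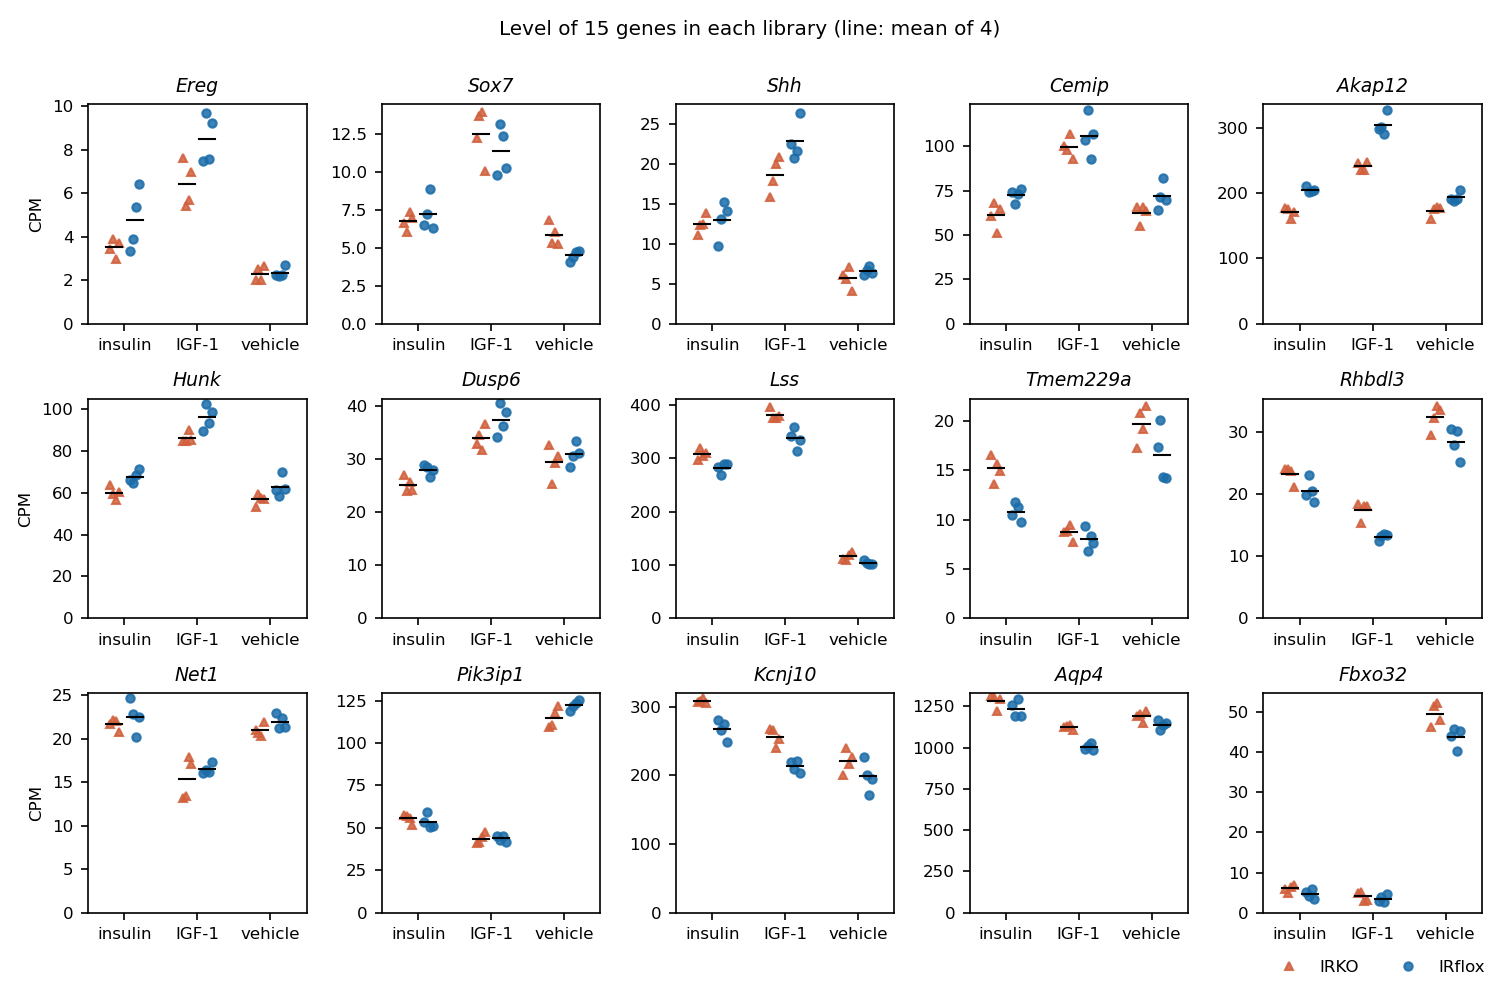
Level of 15 genes in CPM (vertical axes, from 0) in each library under insulin, IGF-1 and vehicle, with triangles for IRKO, circles for IRflox and a line at each mean of 4. Akap12, Hunk and Dusp6 are below the IGF-1 libraries in all 8 insulin libraries, and Tmem229a, Rhbdl3 and Net1 are above them in all 8.

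Calls among genes that the ERK cascade switches on, or that feed back on it, were all on the lower side under insulin. Of 32 tested members of this list, 16 were called lower and none higher, beside 4.29% lower and 4.26% higher over all tested genes. The median log2 difference of the list was -0.15, beside 0.00073 over all tested genes. Dusp6 (chr10:99263231-99267489, plus strand), the phosphatase that inactivates ERK, had 24.1, 26.8 and 28.9 CPM under insulin, against 31.8, 35.5 and 40.6 CPM under IGF-1 (log2 difference -0.42, SE 0.049, adjusted p = 6.35e-08), without overlap. The vehicle libraries, with 25.4, 30.6 and 33.5 CPM, lay between the ligands, and the log2 values were -0.18 for insulin against vehicle (adjusted p = 0.0016) and 0.24 for IGF-1 against vehicle (adjusted p = 3.62e-05).

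Spred3, an inhibitor of RAS signalling, had 55.4, 58.1 and 66.04 CPM under insulin, against 71.2, 73.4 and 84.4 CPM under IGF-1 (log2 difference -0.34, SE 0.037, adjusted p = 2.64e-08), without overlap. Other members called lower were Dusp4 (-0.46), Dusp7 (-0.30), Spry4 (-0.28), Spry2 (-0.21), Spred1 (-0.15) and the ETS factor Etv5 (-0.21), the first pair phosphatases of MAP kinases and the Sprouty and Spred genes inhibitors. Hbegf, a second EGF-receptor ligand, was lower by a log2 difference of -0.37. Members named beyond the 3 with the lowest p of a list, here and below, were chosen after their values were seen. Fosl1, an AP-1 subunit, gave -0.50, but 57.2% of its exons overlap another measured gene and it is uncertain.

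Set against vehicle, the median of the list was -0.0082 for insulin and 0.16 for IGF-1. The AP-1 partner Maff also lay on opposite sides of vehicle, with -0.13 for insulin against vehicle (adjusted p = 0.013) and 0.20 for IGF-1 against vehicle (adjusted p = 1.23e-04). Tm4sf1, a tetraspanin-like membrane protein of the reactive astrocyte panel, did so too, with -0.29 for insulin against vehicle (adjusted p = 1.07e-07) and 0.19 for IGF-1 against vehicle (adjusted p = 9.46e-05). Between the ligands Tm4sf1 had 124, 127 and 142 CPM under insulin, against 173, 179.9 and 190.3 CPM under IGF-1 (log2 difference -0.48, SE 0.041, adjusted p = 6.59e-11). A list of early response genes, which shares members with this one, had 3 of 26 called higher, among them Jun (0.18) and Klf2 (0.29), and 4 lower. The shares over all tested genes were 4.26% and 4.29%. The early response list had 1 higher with the hepatocyte marker level as a covariate or without the libraries with over 20% of reads outside genes.

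Genes of cholesterol synthesis and uptake were mostly lower under insulin, although far above vehicle under both ligands. Of 27 tested, 21 were called lower and none higher, beside 4.29% lower over all tested genes. The median was -0.15. Lss (chr10:76531588-76557138, plus strand), which makes lanosterol, had 268, 293 and 320.1 CPM under insulin, against 314, 367 and 397 CPM under IGF-1 (log2 difference -0.28, SE 0.029, adjusted p = 3.60e-09), and vehicle libraries had 102, 109 and 124 CPM.

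Hsd17b7, a reductase of the later steps, had 133, 158 and 175 CPM under insulin, against 158, 204 and 217 CPM under IGF-1 (log2 difference -0.34, SE 0.035, adjusted p = 3.97e-09). Its groups and those of Lss overlapped. Sqle (-0.15), Insig1 (-0.16), Cyp51 (-0.20) and Hmgcs1 (-0.099) were called lower as well. Medians of the list against vehicle were 1.14 for insulin and 1.33 for IGF-1. With the hepatocyte marker level as a covariate 12 members were called lower, and the median was -0.15.

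Srebf1, which encodes SREBP-1, went the other way, with 229, 246 and 254 CPM under insulin, against 205, 220.0 and 229 CPM under IGF-1 (log2 difference 0.16, SE 0.030, adjusted p = 2.01e-04). In the fatty acid and lipid list, 10 of 25 were called lower and 2 higher, beside 4.29% and 4.26% over all tested genes. The second of those higher was Gpam, an acyltransferase of triglyceride synthesis (log2 difference 0.21, adjusted p = 7.15e-05). Mfsd2a, a carrier of lipids with polyunsaturated chains, had 89.6, 96.8 and 104 CPM under insulin, against 113, 115 and 124 CPM under IGF-1 (log2 difference -0.28, SE 0.033, adjusted p = 8.83e-08). Elovl6, which lengthens fatty acids, gave -0.22, and Fasn, fatty acid synthase, -0.087. Only 2 members were called lower with the hepatocyte marker level as a covariate and 6 without the libraries with over 20% of reads outside genes.

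**Figure D3:**
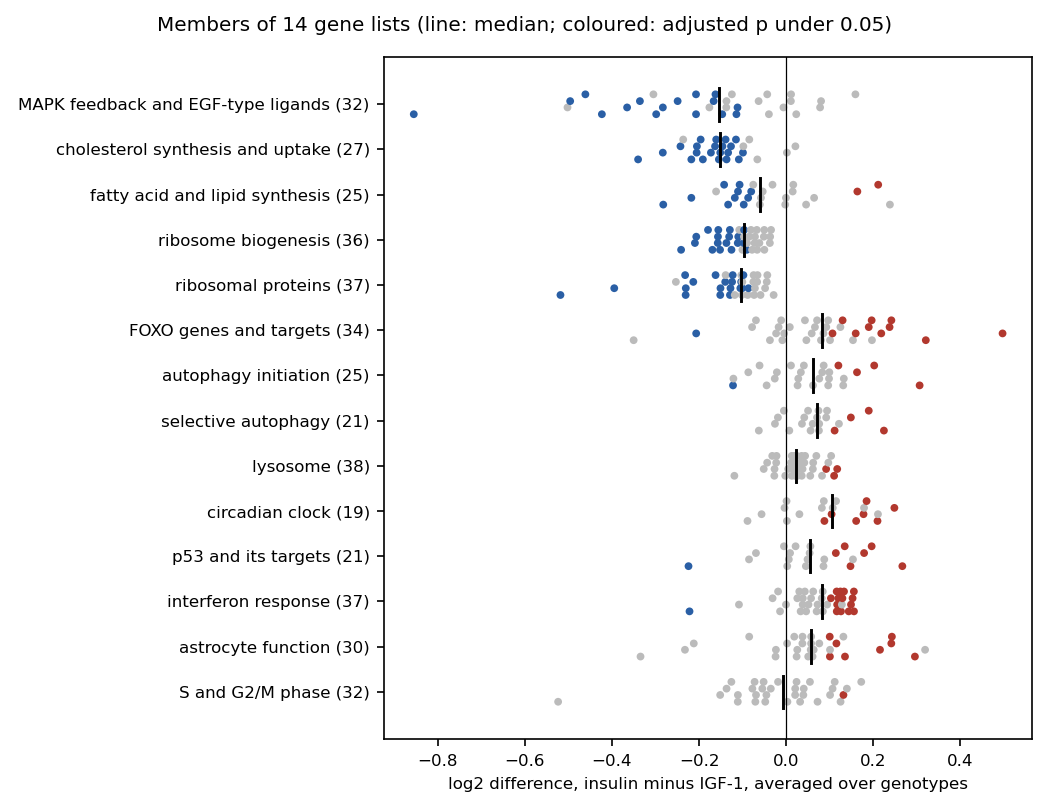
Log2 difference, insulin minus IGF-1, averaged over genotypes (horizontal axis), for the tested members of 14 gene lists (number in brackets), with coloured points called at an adjusted p under 0.05 and a line at each median. The medians of MAPK feedback and cholesterol synthesis lie near -0.15, those of the ribosome lists near -0.10, and the S and G2/M list has 1 called gene of 32.

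Calls among ribosome genes were all on the lower side under insulin, and those of ribosomal protein genes were rarely made in 1 genotype. Of 37 ribosomal protein genes, 19 were called lower and none higher, beside 4.29% lower over all tested genes. All 37 had a negative value. The median was -0.10. In 17 of the 19 the call was made in the average alone. Rplp1, of the ribosomal stalk, had 287, 324 and 370.3 CPM under insulin, against 329, 387 and 427 CPM under IGF-1 (log2 difference -0.23, SE 0.051, adjusted p = 0.00216), and adjusted p-values of 0.0794 in IRKO and 0.0718 in IRflox. Rps16 had 176, 198 and 221 CPM under insulin, against 202, 226 and 243 CPM under IGF-1 (log2 difference -0.21, SE 0.041, adjusted p = 4.44e-04), and Rpl30 gave log2 difference -0.23, adjusted p = 0.00292. Ribosomal protein genes have many near-identical processed copies, so their counts are uncertain. The count was 3 with the hepatocyte marker level as a covariate, 8 without the libraries with over 20% of reads outside genes, and 9, 8, 11 and 10 without IRflox IGF-1 replicate 2, IRflox insulin replicate 3, IRKO insulin replicate 1 and IRKO insulin replicate 2 in turn, with medians between -0.12 and -0.091.

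Factors that build ribosomes followed the same direction: 18 of 36 were called lower, beside 4.29% over all tested genes. All 36 had a negative value, and the median was -0.097. In 12 of the 18 the call was made in the average alone. Nop56, a core protein of box C/D particles that guide methylation of ribosomal RNA, had 83.01, 89.5 and 95.5 CPM under insulin, against 95.97, 101 and 104 CPM under IGF-1 (log2 difference -0.17, SE 0.033, adjusted p = 3.86e-04), without overlap. Rrp12, needed for export of ribosomal subunits in yeast, gave log2 difference -0.21, adjusted p = 2.62e-04, and Polr1b, a subunit of RNA polymerase I, -0.18. Nop9 overlaps another gene over 29.9% of its exon length and is uncertain (-0.24). Under the same alternatives, 5 and 6 members were called. The initiation factor genes Eif6, which keeps ribosomal subunits apart (log2 difference -0.14, adjusted p = 0.00254), and Eif2s2, a subunit of eIF2 (log2 difference -0.13, adjusted p = 0.00304), were called lower in the average alone.

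FOXO targets are genes that insulin-like signals hold down. Of 34 tested in the list of FOXO genes and targets, 10 were called higher under insulin, 1 lower and 23 neither, beside 4.26% higher over all tested genes, with a median of 0.083. Fbxo32 (chr15:58175879-58214932, minus strand), the ubiquitin ligase atrogin-1, had 3.54, 5.56 and 6.99 CPM under insulin, against 2.64, 3.62 and 5.05 CPM under IGF-1 (log2 difference 0.50, SE 0.12, adjusted p = 0.00374), with overlap. Its vehicle libraries had 40.2, 45.98 and 52.1 CPM, and the log2 values were -3.12 for insulin against vehicle and -3.62 for IGF-1 against vehicle. The call was lost without the libraries with over 20% of reads outside genes (adjusted p = 0.135) and with the hepatocyte marker level as a covariate (adjusted p = 0.0663).

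Pik3ip1, an inhibitor of PI3-kinase, had 50.5, 54.7 and 59.4 CPM under insulin, against 41.2, 43.7 and 47.4 CPM under IGF-1 (log2 difference 0.32, SE 0.038, adjusted p = 9.92e-08), without overlap. Foxo3 itself had 150.2, 154 and 163 CPM under insulin, against 134, 143 and 146 CPM under IGF-1 (log2 difference 0.13, SE 0.027, adjusted p = 0.0012), also without overlap, and was called in the average alone. That call was lost with the hepatocyte marker level as a covariate (adjusted p = 0.0617). Trp53inp1, a p53-induced protein that also acts in autophagy, gave log2 difference 0.20, adjusted p = 1.01e-06, Crebrf 0.24, Ypel3 0.22 and Klhl24 0.16. The member called lower was Ccnd1, cyclin D1, which FOXO factors repress. It had 1097, 1113 and 1159 CPM under insulin, against 1275, 1293 and 1324 CPM under IGF-1 (log2 difference -0.21, SE 0.025, adjusted p = 1.02e-07), and 23.4% of its exon length overlaps another gene, which makes it uncertain. Higher calls in the list numbered 3 with the hepatocyte marker level as a covariate and 5 without the libraries with over 20% of reads outside genes.

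Called autophagy genes were mostly on the higher side under insulin. The share called was 20% in the initiation list and 19% in the selective autophagy list, beside 8.55% over all tested genes. In the initiation list 4 of 25 were called higher and 1 lower, and in the selective autophagy list 4 of 21 were called higher and none lower, beside 4.26% higher and 4.29% lower over all tested genes. In each list 1 member was called higher with the hepatocyte marker level as a covariate. Ulk1, the kinase that starts autophagy, had 36.3, 40.1 and 42.97 CPM under insulin, against 33.6, 35.8 and 37.6 CPM under IGF-1 (log2 difference 0.16, SE 0.041, adjusted p = 0.00775). Atg13, its partner, had 33.96, 38.3 and 39.8 CPM under insulin, against 31.2, 32.3 and 35.4 CPM under IGF-1 (log2 difference 0.20, SE 0.038, adjusted p = 3.13e-04). Both had values overlapping between the ligands.

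Calcoco1, a receptor for selective autophagy of the endoplasmic reticulum, gave log2 difference 0.23, adjusted p = 1.76e-05, Bnip3, a mitophagy receptor, log2 difference 0.19, adjusted p = 0.0105, Sqstm1, the receptor p62, log2 difference 0.11, adjusted p = 0.0187, and Gabarapl1, of the ATG8 family, log2 difference 0.12, adjusted p = 0.0248. Wdr45 (24.7% of exon length shared) and Ccpg1 (28.9%) were called higher but are uncertain. The Sqstm1 call was lost without IRflox IGF-1 replicate 1 or 3, IRflox insulin replicate 2 or IRKO insulin replicate 1 (highest adjusted p = 0.0575), and the Gabarapl1 call without these or IRKO IGF-1 replicate 2 or 4 (highest adjusted p = 0.0763). Against vehicle, Ulk1 gave -1.303 for insulin against vehicle and -1.47 for IGF-1 against vehicle. With the hepatocyte marker level as a covariate, the calls of Ulk1 (adjusted p = 0.0512), Bnip3 (adjusted p = 0.417), Sqstm1 (adjusted p = 0.208) and Gabarapl1 (adjusted p = 0.0975) were lost. Lysosome genes had 3 of 38 called higher, a share of 7.89% beside 4.26% over all tested genes, and 1 with the hepatocyte marker level as a covariate.

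Of the receptors and their substrates, Igf1r, the IGF-1 receptor, was lower under insulin, with 85.004, 91.2 and 97.5 CPM under insulin, against 96.3, 101 and 109 CPM under IGF-1 (log2 difference -0.16, SE 0.029, adjusted p = 2.62e-04). Against vehicle it gave -1.104 for insulin against vehicle and -0.95 for IGF-1 against vehicle. Gab1, a docking protein, had 91.5, 93.3 and 97.8 CPM under insulin, against 79.1, 84.5 and 90.02 CPM under IGF-1 (log2 difference 0.15, SE 0.034, adjusted p = 0.00304), without overlap, and Shc1, the adaptor that leads to RAS, gave log2 difference -0.13, adjusted p = 0.0042. Insr (log2 difference -0.017, adjusted p = 0.881) and Irs2 (log2 difference -0.0044, adjusted p = 0.957) did not pass. Irs1 passed narrowly (log2 difference -0.083, adjusted p = 0.0468) and shares 30.9% of its exon length, so it is uncertain. Leaving out 1 library at a time, 13 of 16 fits lost it (adjusted p 0.00813 to 0.119). The binding proteins differed in direction: Igfbp3 had 628, 741 and 932 CPM under insulin, against 755, 918 and 1072 CPM under IGF-1 (log2 difference -0.27, SE 0.038, adjusted p = 2.74e-06), and Igfbp5 had 464, 540.2 and 581 CPM under insulin, against 399, 459 and 506 CPM under IGF-1 (log2 difference 0.21, SE 0.034, adjusted p = 3.83e-05). The other 11 of 13 tested in their list did not pass, so 15.4% were called, beside 8.55% over all tested genes.

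Of 30 genes of mature astrocyte function, 8 were called higher under insulin and none lower, beside 4.26% higher over all tested genes. Aqp4, the water channel of astrocyte end-feet, had 1190.2, 1276 and 1312 CPM under insulin, against 982, 1069 and 1136 CPM under IGF-1 (log2 difference 0.24, SE 0.024, adjusted p = 2.02e-09), without overlap, and was 0.11 for insulin against vehicle (adjusted p = 1.32e-04) and -0.13 for IGF-1 against vehicle (adjusted p = 9.27e-06) on the log2 scale. Kcnj10, the potassium channel Kir4.1, had 249, 293 and 312 CPM under insulin, against 204, 230.3 and 267 CPM under IGF-1 (log2 difference 0.30, SE 0.038, adjusted p = 3.32e-07), with overlap. Sox9, the astrocyte lineage factor, had 126, 133 and 144 CPM under insulin, against 108, 113 and 117 CPM under IGF-1 (log2 difference 0.24, SE 0.036, adjusted p = 7.32e-06), without overlap. Gfap, the intermediate filament gene, gave log2 difference 0.12, adjusted p = 0.0124. The summed astrocyte marker level, given above, has its lowest insulin library within the IGF-1 range. The count of 8 was 4 with the hepatocyte marker level as a covariate and 5 without the libraries with over 20% of reads outside genes. Markers of fibroblasts and mural cells had 3 of 10 called higher and none lower, namely the collagen gene Col1a2 (log2 difference 0.12, adjusted p = 0.0193), the smooth muscle actin gene Acta2 (log2 difference 0.12, adjusted p = 0.0324) and Cspg4, which oligodendrocyte precursors carry too (log2 difference 0.18, adjusted p = 0.0229). All 12 were detected, at a summed 391 to 455 CPM under insulin, against 365 to 408 CPM under IGF-1, and their part in the astrocyte gene result was not tested. That count of 3 was 0 with the hepatocyte marker covariate, and 1 without the libraries with over 20% of reads outside genes or without any 1 of IRflox IGF-1 replicate 4, IRflox insulin replicate 2, IRKO IGF-1 replicates 3 and 4 and IRKO insulin replicates 1 and 3. More cells of a type and more RNA per cell cannot be told apart in these bulk libraries.

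Clock genes were called higher in 7 of 19 and lower in none, with a median of 0.10. The separate genotypes had 4 called members in IRKO and 0 in IRflox, with medians of 0.12 in IRKO and 0.091 in IRflox. No gene was called for the difference between genotypes, so that difference is not shown. Over all tested genes 4.26% were called higher and 4.29% lower. Nr1d2, the repressor REV-ERB beta, had 66.99, 71.4 and 74.7 CPM under insulin, against 58.3, 63.2 and 67.04 CPM under IGF-1 (log2 difference 0.19, SE 0.030, adjusted p = 2.87e-05), and Dbp, a clock output factor, had 37.9, 44.3 and 54.9 CPM under insulin, against 35.6, 37.7 and 44.1 CPM under IGF-1 (log2 difference 0.25, SE 0.043, adjusted p = 8.81e-05). The averaged count of 7 was 4 without each of IRflox IGF-1 replicate 2, IRflox insulin replicate 1, IRKO IGF-1 replicates 3 and 4 and IRKO insulin replicate 3, taken singly, and 3 with the hepatocyte marker level as a covariate. Among p53 targets 6 of 21 were called higher and 1 lower, with Fas, the death receptor, at 152, 157 and 166 CPM under insulin, against 131, 139 and 149 CPM under IGF-1 (log2 difference 0.18, SE 0.028, adjusted p = 1.58e-05), and Bbc3, the pro-apoptotic PUMA, at log2 difference 0.27, adjusted p = 6.20e-04. Higher calls among p53 targets numbered 3 with that covariate.

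Interferon response genes were called higher in 14 of 37 and lower in 1, beside 4.26% higher and 4.29% lower over all tested genes. The 1 called lower was Ccl2, a chemokine also driven by other signals (log2 difference -0.22, adjusted p = 1.14e-04). Gbp2, a guanylate-binding protein, had 1612, 1673 and 1727 CPM under insulin, against 1442, 1550.5 and 1594 CPM under IGF-1 (log2 difference 0.12, SE 0.026, adjusted p = 0.00193), without overlap. The separate genotypes had 1 called member in IRKO and 13 in IRflox, with medians of 0.019 in IRKO and 0.15 in IRflox. No gene of the list was called for the difference between genotypes, so that difference is not shown. Ifit3 and Ifit3b are near-copies and are uncertain. Higher calls numbered 9 with the hepatocyte marker level as a covariate.

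Genes called in the average of 8 libraries against 8 and in neither genotype numbered 745 (4.78% of those tested), 367 (2.35%) higher and 378 (2.42%) lower. P-values were adjusted within each comparison, so the unadjusted p that passed differed between the average and the genotypes. The count therefore does not rest on the number of libraries alone. Their median size was 0.141 on the log2 scale, with quartiles of 0.112 and 0.202, and 637 of them were under 1.2-fold. The 588 genes called in the average and in at least 1 genotype had a median size of 0.205. The median SE was 0.0535 for the average, against 0.0755 in IRKO and 0.0756 in IRflox. The size and the call come from the same values, so these medians describe the genes and test nothing.

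Of those higher, Foxo3 had the lowest p at a mean level of at least 2 on the log2 CPM scale. They also included Capn5, a calpain protease, with 24.7, 25.8 and 27.2 CPM under insulin, against 21.3, 22.004 and 24.1 CPM under IGF-1 (log2 difference 0.22, SE 0.047, adjusted p = 0.00142), and Ddr1, a collagen-binding receptor kinase, with 503, 544 and 588 CPM under insulin, against 459.6, 503 and 522 CPM under IGF-1 (log2 difference 0.15, SE 0.032, adjusted p = 0.00182). The insulin and IGF-1 libraries did not overlap for Capn5. Tfdp2, a partner of E2F factors, gave log2 difference 0.24, adjusted p = 0.00141, with IRKO 0.24 and IRflox 0.24, and Vwa3b gave log2 difference 0.39, adjusted p = 0.00199. Of those lower, Rplp1 had the lowest p, followed by Gk, glycerol kinase, with 34.2, 37.5 and 41.05 CPM under insulin, against 38.96, 43.4 and 47.4 CPM under IGF-1 (log2 difference -0.19, SE 0.042, adjusted p = 0.00226). Elk3, an ETS factor that acts as a target of RAS signals, had 64.05, 65.03 and 68.3 CPM under insulin, against 69.5, 71.2 and 75.995 CPM under IGF-1 (log2 difference -0.13, SE 0.030, adjusted p = 0.0034), without overlap. Znrf1, a ubiquitin ligase, shares 32.0% of its exon length and is uncertain (-0.15).

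**Figure D4:**
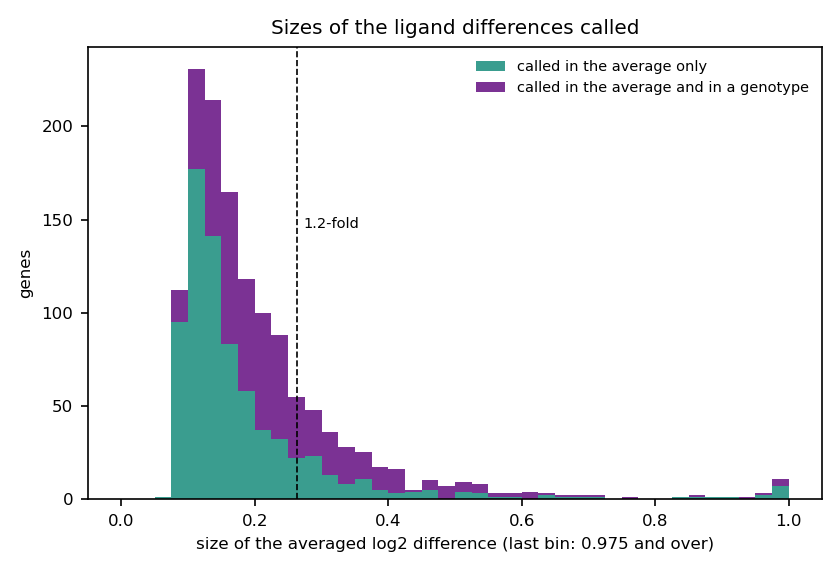
Number of genes (vertical axis) by the size of the averaged log2 difference (horizontal axis) for the 1333 called genes, split into the 745 called in the average alone and the 588 called in at least 1 genotype too. Of the 745, 637 lie left of the dashed line at 1.2-fold.

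The 2 genotypes' ligand differences share no libraries, so one can be set against the other. In IRKO 417 genes (2.67%) were called and in IRflox 404 (2.59%), with 186 in both, 44.6% of the IRKO and 46.0% of the IRflox calls. All 186 had the same sign. Of the 417 called in IRKO, 408 (97.8%) had the same sign in IRflox, and of the 404 called in IRflox, 383 (94.8%) had the same sign in IRKO, beside 63.0% of all tested genes. The genes called in IRflox had a median size of 0.24 there and a median of 0.18, signed the same way, in IRKO. Those called in IRKO had a median size of 0.24 there and a median of 0.17, signed the same way, in IRflox. Each set was chosen on the values of the genotype with the larger median, so these medians do not compare the genotypes.

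The difference between genotypes in the ligand difference was called in no gene by edgeR (0%), with a lowest adjusted p of 0.129. At an unadjusted p under 0.05 there were 690 genes (4.42%), and DESeq2 called 2. In 355 genes (2.28%) the 4 insulin and 4 IGF-1 libraries did not overlap in both genotypes in the same direction. Among the named genes the values were often close, as for Hsd17b7 (IRKO -0.33 and IRflox -0.35) and Hunk (IRKO -0.52 and IRflox -0.50). A p that misses the threshold does not show that the genotypes respond alike.

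**Figure D5:**
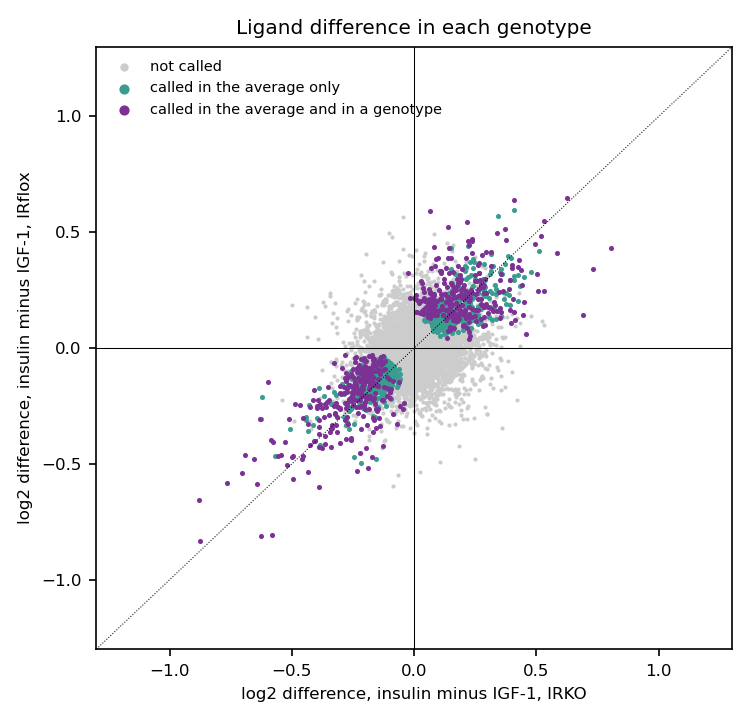
Log2 difference, insulin minus IGF-1, in IRKO (horizontal axis) against that in IRflox (vertical axis) for 12050 genes with a mean log2 CPM of at least 2 over the ligand libraries. Points in colour were called in the average, and the dotted line marks equal values. Of all 1333 called genes, 1330 have the same sign in both genotypes and 3 do not. Those genes were called on the average of these same 2 values, so that agreement follows largely from the selection.

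The next lists held smaller shares of calls (3.12, 5.26 and 3.33%) than all tested genes (8.55%). S and G2/M phase genes had 1 of 32 called, Rrm1, the large subunit of ribonucleotide reductase (log2 difference 0.13, adjusted p = 0.0321), tRNA synthetases 1 of 19, Iars (log2 difference -0.11, adjusted p = 0.0327), and nuclear oxidative phosphorylation genes 1 of 30, Cox7b (log2 difference -0.18, adjusted p = 0.0218). Leaving out 1 library at a time lost the call of Rrm1 in 11 of 16 fits, that of Iars in 8 and that of Cox7b in 3 (highest adjusted p = 0.0849, 0.116 and 0.0672). None of the 17 microglia markers was called. Tuba8, a tubulin gene at a log2 value of 2.11 for insulin against vehicle and 2.05 for IGF-1 against vehicle, did not pass between the ligands (log2 difference 0.058, adjusted p = 0.722). In the chaperone list 17.1% were called, above the share over all tested genes. There 4 of 35 were lower, among them Hspe1 and Hspd1, the mitochondrial chaperonins (-0.20 and -0.12), and 2 higher. None was called either way with the hepatocyte marker level as a covariate.

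Promoters of the genes in 3 lists were searched, on both strands, for 1 motif each. In these lists all or most of the called members were on 1 side. The letters of the motifs were chosen after 2 of the promoters had been seen. The windows run from 250 bases before to 50 bases after the start of RefSeq genes (GRCm38.p6), 300 bases in all. A sterol regulatory element, written TCACNCCAC, was present in 1 of 19 cholesterol genes with a promoter in the table (5.26%), beside 1.43% of 11604 tested genes. A FOXO site, GTAAACA, was in 4 of 25 genes of the FOXO list, against 3.17% of the tested genes, and an AP-1 site, TGANTCA, in 2 of 25 of the MAPK feedback list (8.0%), beside 6.71%. A match is a description of letters, and no match says only that these letters are not in the window. Shown are the called cholesterol gene and the called FOXO-list gene with a match, 5′ to 3′ on the plus strand, with the match in capitals, at chr13:119690101-119690400 for Hmgcs1 and chr7:126776713-126777012 for Ypel3.
Hmgcs1: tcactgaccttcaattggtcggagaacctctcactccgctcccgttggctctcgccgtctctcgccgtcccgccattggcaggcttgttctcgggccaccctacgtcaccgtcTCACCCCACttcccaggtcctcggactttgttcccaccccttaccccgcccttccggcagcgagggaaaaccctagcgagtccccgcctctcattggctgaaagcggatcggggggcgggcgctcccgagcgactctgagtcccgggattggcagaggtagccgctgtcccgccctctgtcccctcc
Ypel3: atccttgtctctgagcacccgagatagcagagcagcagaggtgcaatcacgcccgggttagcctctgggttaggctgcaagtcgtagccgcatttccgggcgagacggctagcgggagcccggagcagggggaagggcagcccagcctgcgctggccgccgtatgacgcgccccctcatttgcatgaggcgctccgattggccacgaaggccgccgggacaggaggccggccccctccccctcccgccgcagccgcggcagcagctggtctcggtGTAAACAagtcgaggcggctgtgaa
The match begins 137 bases before the start of Hmgcs1 and 25 bases after that of Ypel3. Between the ligands, Hmgcs1 had 1463, 1518 and 1571 CPM under insulin, against 1536, 1631 and 1694 CPM under IGF-1 (log2 difference -0.099, SE 0.025, adjusted p = 0.00841), and Ypel3 had 12.8, 16.3 and 20.6 CPM under insulin, against 12.4, 13.97 and 17.2 CPM under IGF-1 (log2 difference 0.22, SE 0.069, adjusted p = 0.0393).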

How the data were processed

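RNA of 24 libraries was sequenced as non-stranded, paired 150 bp reads from poly-A RNA, per the labels' protocols. The deposited files hold raw counts of reads per gene, made by the authors without normalization. STAR 2.7.7a, edgeR, DESeq2, R 4.0.4 and mm10 are named per the submitters' processing notes. Not given in the sources used here: the counting program and the release of the annotation. Each file ends in 3 lines of read totals without a gene, which entered neither library sizes nor tests. Reads outside genes, computed from these totals, were 15.3 to 21.9% in insulin and 14.5 to 21.4% in IGF-1 libraries. Gene counts exceeded reads in genes by 4.55 to 4.93%, which means that a read could count for several genes. Mitochondrial genes were not analysed here.

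Groups were taken from sample titles. Counts were fitted with edgeR 4.0.16 (R 4.3.3) in a quasi-likelihood model of 6 group means over all 24 libraries, after filterByExpr (counts of at least 10, totals of at least 15) and TMM scaling (factors 0.982 to 1.018). A gene was called where its p, adjusted over 15599 genes by Benjamini-Hochberg, was under 0.05. CPM used TMM sizes, and log2 CPM a prior count of 2. Errors of log2 differences are standard errors of the fit, and the biological coefficient of variation was 4.92%. No pair of replicates agreed within sampling noise (chi-square per gene of 2.17 to 6.88), so each counted as 1 library. The fit was tested on simulated counts.

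The comparison, members and gene lists were chosen with earlier results of these data known, so list counts are descriptions without a test. Genes were named by rule: the 12 largest differences each way at a log2 CPM averaging 2 or more and 1 sign in both genotypes, the 6 with the lowest p each way among those called in the average alone, up to 3 called members per list, called markers, and Insr, Igf1r, Irs1, Irs2, Fbxo32, Ulk1, Sqstm1, Gabarapl1, Hsd17b7, Srebf1 and Tuba8. A few genes that the rule names are not reported here. Genes whose exons overlap another measured gene over more than 20% of their length are marked uncertain. Alternatives were another scaling, filter, tool (DESeq2 1.42.0) and model, covariates, replicate blocks and leaving out each ligand library. The fits with the hepatocyte marker level and without the libraries with over 20% of reads outside genes were added after seeing the data.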

Additional observations from a re-analysis of the deposited data

Results flagged for a closer look

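In 22 of the 412 groups of 4 ligand libraries, over the 103 genes named by rule and mentioned in the text, 1 library stood apart from the other 3 by Dixon's gap ratio at its critical value for 4 values. Chance flags about 1 in 20 groups, and 5.34% were flagged here. Values are CPM, given with the range of the other 3 libraries of the group. No explanation was tested.

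In IRKO insulin replicate 1, Ccnd1 was 1147, above the others' 1097 to 1106, and Igfbp5 was 581, above the others' 557 to 561. In IRKO insulin replicate 2, Capn5 was 27.1, above the others' 24.9 to 25.2. In IRKO insulin replicate 4, Rhbdl3 was 21.2, below the others' 23.8 to 23.999. In IRflox insulin replicate 1, Nop9 was 84.3, below the others' 87.5 to 87.7. In IRflox insulin replicate 2, Rrm1 was 37.2, below the others' 40.2 to 40.6. In IRflox insulin replicate 4, Cacng4 was 6.29, below the others' 7.69 to 7.93, and Cxcl1 was 1839, above the others' 1565 to 1579.9. There, Hspe1 was 102, above the others' 84.3 to 86.6, and Ptx3 was 1151, above the others' 1062 to 1075. There, Tnc was 259.9, above the others' 244 to 245. In IRKO IGF-1 replicate 1, Tnc was 272, above the others' 261 to 262. In IRKO IGF-1 replicate 2, Lrrc75b was 8.48, below the others' 10.3 to 10.4, and Rhbdl3 was 15.3, below the others' 18.03 to 18.5. In IRKO IGF-1 replicate 3, Foxo3 was 134, below the others' 144 to 145, and Hunk was 90.2, above the others' 84.8 to 85.3. In IRKO IGF-1 replicate 4, Nop9 was 81.8, below the others' 85.5 to 86.2, and Rrm1 was 40.6, above the others' 37.8 to 38.1. There, Spred3 was 78.3, above the others' 73.03 to 73.8. In IRflox IGF-1 replicate 2, Rps16 was 243, above the others' 218 to 222. In IRflox IGF-1 replicate 3, Cox7b was 48.7, below the others' 53.6 to 54.2, and Cspg4 was 15.8, below the others' 16.7 to 16.8.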

How the results depend on the processing

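The average gave 1333 called genes, and 1292 to 1538 under another scaling, filter, tool or model, a block, or another covariate than those that follow. Library size alone as the scaling gave 744 higher and 612 lower, a split of 54.9% higher, and no filter on low counts 44.6%, against 49.8% as reported. With the hepatocyte marker level as a covariate, the average had 393 genes (196 higher, 197 lower), IRKO 221, IRflox 145, the average alone 134 and the difference between genotypes 1, with 375 of the 393 among the original 1333. Alb reversed there (-0.48), as its own level is part of the covariate, and 57 named genes lost their call. Those included Foxo3, Gfap, Gab1, Elk3, Vwa3b, Endou and Rplp1, and not every such loss is marked above. Without the 5 libraries with over 20% of reads outside genes, the average had 792 (402 higher, 390 lower), IRKO 158 and the average alone 429, and 22 named genes lost their call. Fewer libraries were compared in that fit, and other causes were not tested. The difference between genotypes was called in 16 genes without a filter on low counts and in 2 by DESeq2.

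Leaving out 1 ligand library at a time gave 1051 to 1402 genes in the average (473 to 690 higher, 522 to 713 lower), 267 to 421 in IRKO, 247 to 424 in IRflox, 558 to 794 in the average alone and 0 to 1 between genotypes. IRKO fell to 267 without insulin replicate 1 and to 277 without insulin replicate 3, and IRflox to 247 without insulin replicate 2 and to 250 without IGF-1 replicate 4.

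No clear pairing by replicate number was seen between the ligands, which does not show that same-numbered libraries came from separate cultures. Same-numbered insulin and IGF-1 libraries had correlations of -0.042 to 0.099 over 8 pairs. Among the 4 libraries of the other ligand and the same genotype, 5 of 16 libraries correlated best with their own number. Over all 6 groups, 5 of 60 same-numbered pairs passed 0.1, the highest at 0.15. With a replicate block the average had 1380 genes, IRKO 428, IRflox 411 and the average alone 775, and with blocks within genotype the average had 1538. Alb had 1 count in 3 of the 16 ligand libraries, so its difference rests on few reads.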

Other observations

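Further lists described here went both ways. In the reactive astrocyte panel, 8 of 37 were lower and 5 higher under insulin, beside 4.29% lower and 4.26% higher over all tested genes. Those lower included Clcf1, a cytokine of the CNTF family, with 41.6, 43.97 and 50.4 CPM under insulin, against 54.6, 56.3 and 60.1 CPM under IGF-1 (log2 difference -0.34, SE 0.036, adjusted p = 1.08e-08), and Ptx3, a secreted pentraxin, with 865, 1037 and 1151 CPM under insulin, against 1128, 1235 and 1460.2 CPM under IGF-1 (log2 difference -0.31, SE 0.046, adjusted p = 6.11e-06). Clcf1 did not overlap between the ligands, and Ptx3 did. The panel's higher calls ran from 2 with the hepatocyte marker level as a covariate to 9 with library size alone as the scaling, and its lower calls numbered 5 with that covariate. Of 43 growth factors and other secreted signals, 9 were lower and 5 higher, with 2 higher under that covariate. Cxcl1, a neutrophil chemokine, gave log2 difference -0.33, adjusted p = 1.13e-05, Nrg1, a ligand of ERBB receptors, log2 difference -0.23, adjusted p = 3.20e-06, and Tgfb2, in the other direction, log2 difference 0.27, adjusted p = 2.11e-05. Bdnf, a neurotrophin, was lower, with a log2 difference of -0.31.

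Olig2, a transcription factor of the oligodendrocyte lineage that immature astrocytes can also carry, had 93.9, 101 and 109 CPM under insulin, against 113, 121 and 130.3 CPM under IGF-1 (log2 difference -0.26, SE 0.037, adjusted p = 3.40e-06), without overlap. Olig1 gave log2 difference -0.16, adjusted p = 0.00149, and the lineage's Cnp and Cspg4 were higher (0.12 and 0.18), so its markers did not share a direction. The summed level of its 11 markers was 377, 426 and 441 CPM under insulin, against 420, 455 and 493 CPM under IGF-1. The Cnp call was lost without the libraries with over 20% of reads outside genes (adjusted p = 0.0533). With the hepatocyte marker covariate the calls of Cnp (adjusted p = 0.36) and Cspg4 (adjusted p = 0.0789) were lost. The Cspg4 call was lost without IRflox IGF-1 replicate 3, IRflox insulin replicate 2, IRKO IGF-1 replicate 2 or IRKO insulin replicate 1 (highest adjusted p = 0.0724). Hif1a, the oxygen-regulated factor, had 363, 389.7 and 426 CPM under insulin, against 446, 467 and 497 CPM under IGF-1 (log2 difference -0.26, SE 0.031, adjusted p = 1.20e-07). Of 25 genes in the list of HIF targets, 2 were called lower and 4 higher. The shares over all tested genes were 4.29% lower and 4.26% higher. No HIF target was called higher under the hepatocyte marker covariate. The count was 2 higher without any 1 of IRflox IGF-1 replicate 2, IRflox insulin replicate 2, IRKO IGF-1 replicate 1 and IRKO insulin replicate 3. Tnc, the matrix protein tenascin-C, had 191, 230.4 and 259.9 CPM under insulin, against 261, 269 and 311 CPM under IGF-1 (log2 difference -0.29, SE 0.033, adjusted p = 4.36e-08). Cdkn2b, the cell cycle inhibitor p15, had 208, 219 and 227 CPM under insulin, against 181, 193 and 199 CPM under IGF-1 (log2 difference 0.19, SE 0.029, adjusted p = 1.10e-05). Tubb2a, a beta tubulin whose near-copies make it uncertain, had 476, 498 and 525 CPM under insulin, against 551, 578 and 596 CPM under IGF-1 (log2 difference -0.21, SE 0.030, adjusted p = 2.92e-06), and its log2 values were 1.17 for insulin against vehicle and 1.38 for IGF-1 against vehicle.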
